A study of Mus musculus with 5 samples.

Results

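The genes followed were Sox9, Sox5 and Sox6, which encode the transcription factors known as the Sox trio, and the cartilage matrix genes Acan, Matn1, Matn3, Matn4, Hapln1, Lect1 and Comp. They were chosen by name, with earlier results of these data known. All 10 had 1 row each among 22653 single gene names in a table of 28092 rows. RNA came from mouse forelimbs at E11.5 (47 to 48 somites) on a mixed strain background of C57BL/6 and Swiss Webster. The 3 control samples are labelled only as controls, and the genotype behind that word was not used here. The 2 Prmt5cKO samples carried Prx1Cre and 2 conditional copies of Prmt5. Prx1Cre acts in limb bud mesenchyme, so other cells of the same forelimb, such as ectoderm, blood, vessels, nerve and migrating muscle precursors, were not its targets. The values are 1 FPKM per gene and genotype, that is fragments scaled to transcript length and library total. They carry no SD, and how deeply each sample was sequenced is unknown.

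Cartilage of the limb starts as mesenchymal condensations in which SOX9 switches on the programme. SOX5 and SOX6, which belong to another branch of the Sox family, bind DNA beside SOX9 and strengthen its action on matrix genes. The matrix they build holds aggrecan (Acan), a chondroitin sulfate proteoglycan that binds hyaluronan, link protein (Hapln1), which locks that bond, and adaptor proteins such as the matrilins (Matn1, Matn3, Matn4) and COMP, which join collagen fibrils to other components. Lect1, named Cnmd in newer annotation, encodes chondromodulin, a cartilage protein that restrains vessel growth.

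For 8 of the genes the RefSeq promoter table on GRCm38.p6 held 14 start sites. Sox9 and Comp were the other two. The core letters that Sox proteins favour were searched as ACAAAG and ACAATG on both strands of the 250 bases before each start; no stretch is counted for both. They were present before 6 of 14 starts, all of Sox5 or Sox6, against 25.2% of 32851 starts in the whole table. By gene, 2 of 8 held a match, against 28.2% of 27025 genes. The windows of Matn4, Acan, Lect1, Matn1, Matn3 and Hapln1 held none. All 250 bases of the Hapln1 window lie in exons of that gene in GENCODE M21. A match is a run of letters, not a site of binding. The windows below stand for 2 regulators with the letters, 2 matrix genes that fell without them, and Matn1, a matrix gene at an equal level in both genotypes. Capitals mark the motif letters, read along the strand of the gene.
Sox5, chr6:143947107-143947356, minus strand: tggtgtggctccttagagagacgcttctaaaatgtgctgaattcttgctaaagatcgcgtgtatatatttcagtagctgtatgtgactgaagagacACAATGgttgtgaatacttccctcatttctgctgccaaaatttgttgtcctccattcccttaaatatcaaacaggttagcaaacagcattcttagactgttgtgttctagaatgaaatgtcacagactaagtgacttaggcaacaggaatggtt
Sox6, chr7:115995087-115995336, minus strand: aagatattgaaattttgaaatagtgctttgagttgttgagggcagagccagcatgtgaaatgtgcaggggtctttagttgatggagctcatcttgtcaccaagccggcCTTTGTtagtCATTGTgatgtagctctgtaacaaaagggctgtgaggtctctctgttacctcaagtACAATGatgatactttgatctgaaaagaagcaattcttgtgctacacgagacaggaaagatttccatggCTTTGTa
Acan, chr7:79052976-79053225, plus strand: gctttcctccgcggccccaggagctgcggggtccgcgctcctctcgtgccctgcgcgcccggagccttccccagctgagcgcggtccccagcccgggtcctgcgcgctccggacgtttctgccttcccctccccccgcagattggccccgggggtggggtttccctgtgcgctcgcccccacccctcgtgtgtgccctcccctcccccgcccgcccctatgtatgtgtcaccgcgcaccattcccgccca
Matn4, chr2:164405161-164405410, minus strand: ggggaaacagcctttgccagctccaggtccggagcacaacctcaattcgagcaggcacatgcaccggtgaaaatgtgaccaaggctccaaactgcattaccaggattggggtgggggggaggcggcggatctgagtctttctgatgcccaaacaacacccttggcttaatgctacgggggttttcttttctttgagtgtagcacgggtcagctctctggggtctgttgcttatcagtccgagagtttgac
Matn1, chr4:130944135-130944384, plus strand: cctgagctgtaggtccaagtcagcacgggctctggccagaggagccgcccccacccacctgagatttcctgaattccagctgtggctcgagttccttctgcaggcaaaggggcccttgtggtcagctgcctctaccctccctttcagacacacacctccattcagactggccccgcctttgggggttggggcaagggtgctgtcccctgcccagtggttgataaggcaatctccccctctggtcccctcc
The Sox5 and Sox6 windows lie inside the long gene bodies, before an internal start, and overlap no exon of those genes in GENCODE M21. Sox6 had 6 starts in the table, and the window shown held 4 matches, the most of the 14. The windows of these genes also differed in base composition. That of Acan was 74.4% G or C with 26 CG steps, and that of Sox5 39.6% with 3, against a median of 52.4% and 6 over all starts.

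The genotype labels were checked on the targeted gene. Prmt5 had 40.9 FPKM in control and 12.5 in Prmt5cKO, 30.6% of control, with a log2 change of -1.71 and a q of 0 per the authors' deposited table. The tissue carried forelimb markers: Tbx5 was at 23.0 and 19.9 FPKM, against 3.81 and 2.95 for the hindlimb factor Tbx4 and 0.143 and 0.268 for Pitx1. Sex-linked transcripts were unequal too, with Xist at 87.3 and 0.392 FPKM and Ddx3y at 0.0840 and 21.8. The sex of the embryos therefore cannot be told apart from their genotype in any difference below.

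In Prmt5cKO forelimbs 5 of the 10 genes fell at the authors' q under 0.05 (Sox9, Sox5, Acan, Matn4 and Lect1) and none rose. Of 18467 single genes above 0 FPKM, 11.6% fell and 2.95% rose by the same rule. Hapln1, Matn3 and Matn1 did not pass. Sox6 is listed with a fold of 0 and a q of 1 despite unequal FPKM, which was read as not tested, and Comp has a q of 1. The table holds adjusted values only, so no count at an unadjusted p can be set beside the 0 rises. In whole tissue, fewer cells of a type and less RNA per cell cannot be told apart.

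**Figure D1:**
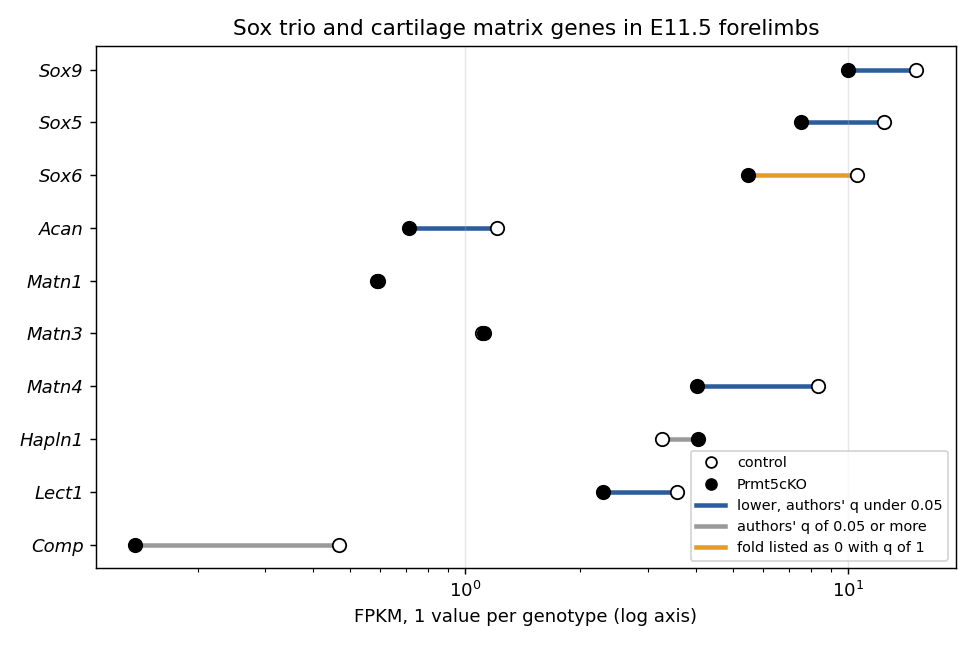
FPKM of the 10 genes on a log axis, 1 value per genotype, with open circles for control and filled circles for Prmt5cKO and the line coloured by the authors' q. The filled circle lies left of the open one for 7 genes, covers it for Matn1 and nearly so for Matn3, and lies right of it for Hapln1.

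All members of the Sox trio were at lower values in Prmt5cKO. Sox9, on chromosome 11 from 112782224 to 112787760 (plus strand, GRCm38, GENCODE M21), had 15.1 FPKM in control and 9.98 in Prmt5cKO. Its log2 change was -0.60 with q = 8.4e-04 per the authors' deposited table. Sox5, on chromosome 6 from 143828425 to 144781977 (minus strand), had 12.4 and 7.52 FPKM, with a log2 change of -0.72 and a q of 0 per the authors' deposited table. Both regulators thus fell, Sox9 by 1.51-fold and Sox5 by 1.65-fold. Sox6, on chromosome 7 from 115470872 to 116038796 (minus strand), had 10.6 and 5.49 FPKM, 52.0% of control, with no test to set beside it.

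The 3 factors kept their order of level in both genotypes, with Sox9 highest and Sox6 lowest. With no spread over samples, whether neighbours in this order differ cannot be said. Their summed level was 38.1 FPKM in control and 23.0 in Prmt5cKO, 60.4% of control. Sox9 made up 39.6% of that sum in control and 43.4% in Prmt5cKO, Sox5 32.6% and 32.7%, and Sox6 27.8% and 23.9%. The ratio of Sox9 to Sox6 was 1.43 and 1.82, and that of Sox9 to Sox5 1.22 and 1.33. These shares are levels per length and were not tested.

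The regulators have close relatives outside the trio. Sox8 and Sox10 belong to the branch of Sox9 and are active in neural crest and glia among other tissues, and Sox13 belongs to the branch of Sox5 and Sox6. None of the 3 passed the threshold. Sox8 was at 1.28 FPKM in control and 1.35 in Prmt5cKO, Sox10 at 0.468 and 0.626, and Sox13 at 2.73 and 3.43 (q = 0.879, 0.431 and 0.0836 per the authors' deposited table). Their values were higher in Prmt5cKO without passing, so no direction is given to them. Sox8 stood at 0.0846 of the Sox9 level in control and 0.136 in Prmt5cKO.

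Of Acan and Hapln1, whose products act in one complex with hyaluronan, only Acan passed the threshold. Acan, on chromosome 7 from 79053483 to 79115099 (plus strand), fell from 1.21 to 0.714 FPKM, with a log2 change of -0.77 and q = 0.00652 per the authors' deposited table. Hapln1, on chromosome 13 from 89539796 to 89611652 (plus strand), was at 3.26 and 4.05 FPKM (log2 change 0.31, q = 0.302 per the authors' deposited table). Link protein transcripts thus exceeded those of aggrecan in both genotypes. The ratio of Acan to Hapln1 was 0.372 in control and 0.176 in Prmt5cKO, and the difference between those ratios was not tested.

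Versican (Vcan), the aggrecan relative of embryonic mesenchyme, was far above it. Its level was 126 FPKM in control against 95.8 in Prmt5cKO, and it is listed with a fold of 0 and a q of 1. Vcan was 98.7% of the summed level of the 4 proteoglycans of this family in control and 99.0% in Prmt5cKO, and Acan 0.949% and 0.737%. The brain members Ncan and Bcan were at 0.387 and 0.0267 FPKM in control, and at 0.256 and 0.0153 in Prmt5cKO, with a q of 1.

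Each of these proteoglycan genes lies beside a link protein gene. Hapln1 lies 43660 bases from Vcan on the opposite strand, and Hapln3 lies 3 bases from Acan, also on the opposite strand. Hapln3 was at 1.32 FPKM in control and 0.910 in Prmt5cKO (log2 change -0.54, q = 0.382 per the authors' deposited table), so it did not pass, although its value was lower as for Acan. Where the counting did not use strand, reads at the touching ends of Acan and Hapln3 could be assigned to either gene. Hapln2 was at 0.0300 and 0.0252 FPKM, and Hapln4 at 0.0731 in control and listed at 0 in Prmt5cKO.

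Among the matrilins, Matn4 alone passed the threshold. Matn4, the most abundant, on chromosome 2 from 164389393 to 164405160 (minus strand), fell from 8.34 to 4.04 FPKM, with a log2 change of -1.05 and q = 6.05e-11 per the authors' deposited table. Matn3, mutated in human epiphyseal dysplasia and lying on chromosome 12 from 8947929 to 8972028 (plus strand), was at 1.11 and 1.12 FPKM (q = 0.981). Matn1, a classic marker of maturing cartilage on chromosome 4 from 130944385 to 130955475 (plus strand), was at 0.591 and 0.588 (q = 0.995). Matn2, expressed in many connective tissues, was at 3.20 and 2.82 FPKM (q = 0.569); these q-values are from the authors' deposited table.

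Matn4 thus was the matrilin that passed, and its share of the 4 summed levels was 63.0% in control and 47.1% in Prmt5cKO. The sum itself was 13.2 and 8.57 FPKM. Whether the change of Matn4 differs from those of the other matrilins was not tested. Matn4 was also the only one of the 10 genes in a second, shorter deposited table of 208 rows. In that table every row had a log2 change of at least 1.003 in size and a q of at most 0.00958. The gene overlaps Rbpjl on the opposite strand, which is listed at 0 in both genotypes.

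Lect1, on chromosome 14 from 79637690 to 79662170 (minus strand), fell from 3.57 to 2.29 FPKM, with a log2 change of -0.64 and q = 0.0399 per the authors' deposited table. It is the member closest to the threshold among those that fell. Its relative Tnmd, which encodes the tendon protein tenomodulin, was at 0.323 and 0.130 FPKM with a q of 1. Comp, on chromosome 8 from 70373558 to 70382066 (plus strand), was the lowest of the 10, at 0.469 FPKM in control and 0.138 in Prmt5cKO. The deposited log2 change of -1.77 was the largest of the 10 in size, and its q was 1 per the authors' deposited table.

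Comp belongs to the thrombospondins, and its relatives were far more abundant. Thbs3, found in developing cartilage, fell from 14.6 to 7.70 FPKM (log2 change -0.92, q of 0), and Thbs1 from 29.0 to 21.7 (-0.41, q = 9.9e-05) per the authors' deposited table. Thbs2 was at 0.825 and 0.558 FPKM and Thbs4 at 0.293 and 0.300, and neither passed. Of all 15 relatives of the 10 genes, these 2 thrombospondins fell, none rose, 12 missed the threshold and Vcan was listed with a fold of 0.

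**Figure D2:**
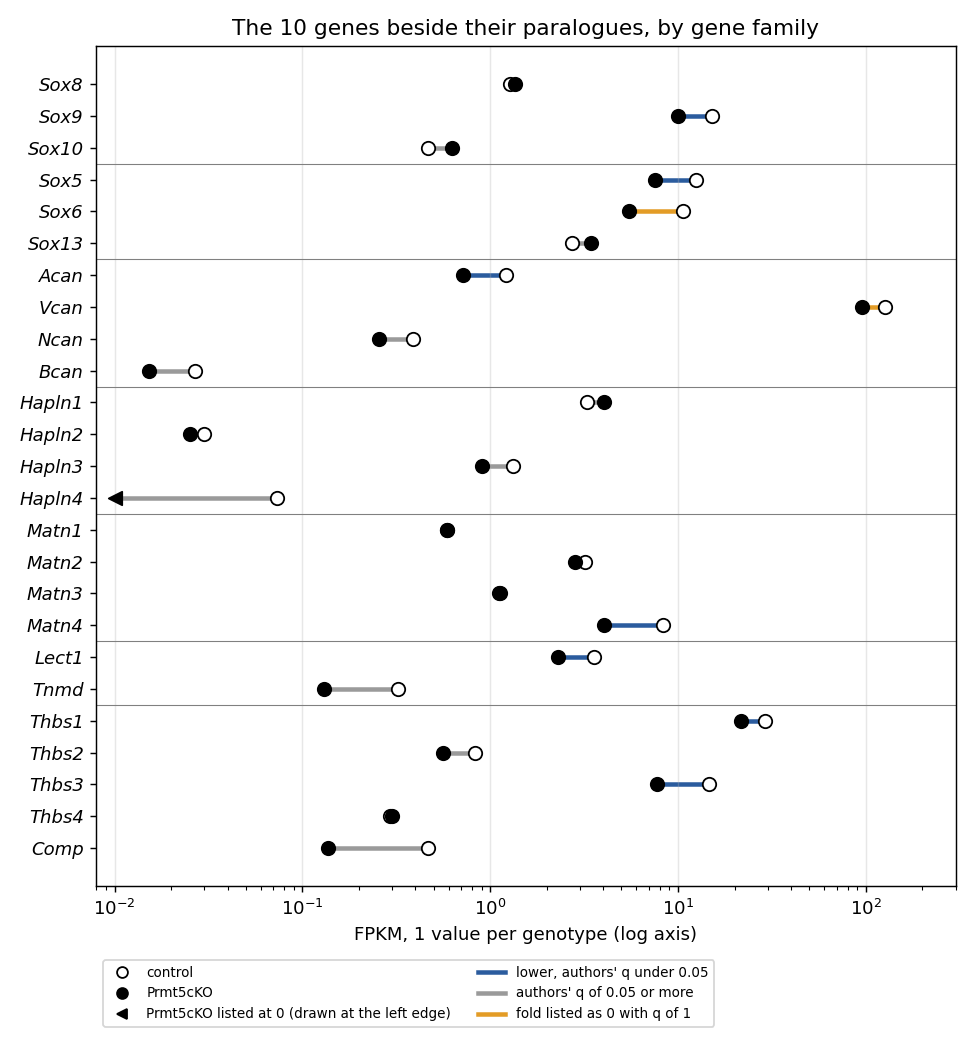
FPKM on a log axis of the 10 genes and their 15 relatives, grouped by family between grey lines, with open circles for control and filled circles for Prmt5cKO. Within families the gene that fell was the most abundant for Sox9, Sox5, Matn4 and Lect1, but not for Acan, which lies far left of Vcan.

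How readily a gene passed depended on its level. Among 3415 genes with a mean of 0.1 to 1 FPKM, 2.81% fell and 63.7% had a q of 1; Acan, Matn1 and Comp lie here. The median size of the log2 change of called genes was 1.25 at this level and its 5th percentile 0.77. That is beyond the 0.60 of Sox9, a gene of higher level. Acan, with a log2 change of -0.77, was thus among the smallest changes called at this level. Among 3191 genes from 1 to 5 FPKM, which include Matn3, Hapln1 and Lect1, 15.9% fell and the 5th percentile was 0.32, against 0.31 for Hapln1. Among 4777 genes from 5 to 20 FPKM, 21.0% fell, and Sox9, Sox5 and Matn4 of the 4 members there did. A q of 1 for Comp therefore does not show an equal level, and the values of Matn1 and Matn3 were near equal whatever their q.

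On a scale with 1 FPKM added to each value, the 7 members with a mean of at least 1 FPKM had a median log2 ratio of -0.55, against -0.12 for 11674 genes of at least that mean. Over all 10 without a minimum it was -0.42, against -0.058 for all genes above 0. Of these 7 genes, 4 fell and none rose, where 17.6% of genes of that level fell and 4.39% rose; Acan has a mean just under 1 FPKM. By the plain FPKM ratio, with nothing added, 1.24% of those genes above 0 in both genotypes had a lower ratio than Matn4, 1.93% than Sox6, 4.44% than Sox5, 6.10% than Lect1 and 7.44% than Sox9. For Hapln1 94.3% did, so it stood near the upper end.

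**Figure D3:**
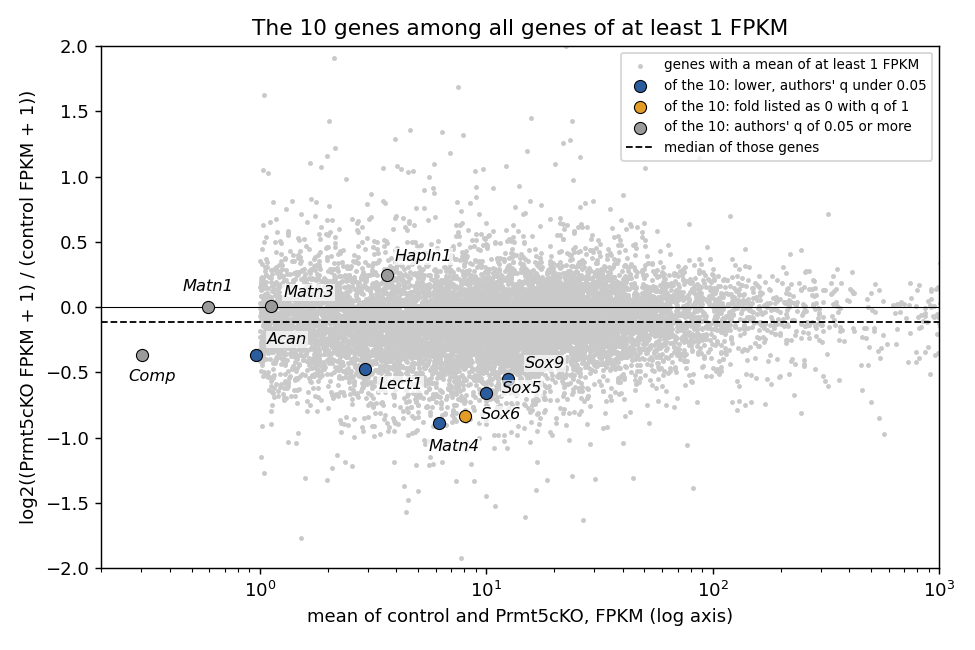
The log2 ratio with 1 FPKM added, against the mean FPKM on a log axis, for 11674 genes with a mean of at least 1 FPKM (grey; 121 lie outside the axes) and for the 10 genes. Matn4, Sox6, Sox5 and Sox9 lie in the lower part of the grey cloud, and Matn1 (0.591 and 0.588 FPKM), Matn3 and Hapln1 above its median of -0.12 (dashed).

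Partner genes of the cartilage matrix were counted from lists that were not chosen for how their genes moved in this table, though with earlier results of these data known. Of 8 collagen genes of cartilage 6 fell, none rose and 2 did not pass. Col2a1, the main fibrillar collagen and a direct target of the trio, fell from 64.8 to 38.2 FPKM (log2 change -0.76, q of 0 per the authors' deposited table). Its ratio to Acan was 53.4 in control and 53.5 in Prmt5cKO, so the values of these 2 genes stood in the same proportion. The chains of collagen IX, to which matrilins bind, were led by Col9a1, which fell from 118 to 44.7 FPKM (-1.40 per the authors' deposited table). The other falls by the naming rule, Col9a3 and Col9a2, had -1.74 and -1.41.

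Of 12 other measured cartilage matrix genes 2 fell, none rose and 10 did not pass, 7 of these with a q of 1. The 2 falls are 16.7% of the list, near the 11.6% of genes above 0 FPKM and the 17.6% of genes of at least 1 FPKM that fell. Fmod, which encodes the collagen-binding proteoglycan fibromodulin, fell from 1.93 to 1.02 FPKM, and Mia, a small secreted protein of cartilage, from 5.18 to 2.28. Their log2 changes were -0.93 and -1.19 per the authors' deposited table. Most genes of this list belong to later cartilage and were low: 4 of the 12 reached a mean of 1 FPKM.

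Among 34 regulators and cofactors of the trio, 9 fell, 3 rose, 12 stayed short of the threshold, 8 were listed with a fold of 0 and a q of 1, and 2 shared a row with another gene. Bmpr1b, a BMP receptor of the condensations, fell from 15.8 to 9.64 FPKM, and the forkhead gene Foxc1 from 8.99 to 4.33. Pth1r, the receptor for parathyroid hormone-related protein, fell from 16.3 to 12.4 and the MADS-box factor gene Mef2c from 8.33 to 6.98. Their log2 changes were -0.71, -1.05, -0.39 and -0.25 per the authors' deposited table. The 3 that rose, named after their values were seen, were Med25, Acvr1 and Runx2. Their log2 changes were 0.32, 0.33 and 0.55, with q = 3.35e-05, 0.0466 and 0.0485 per the authors' deposited table. Acvr1 and Runx2 thus passed only narrowly. Likewise named afterwards were the 2 shared rows. That of Mir140 and its host Wwp2, both known as SOX9 targets, was at 114 and 59.1 FPKM (-0.95, q of 0 per the authors' deposited table). That of Mir1907 and Trps1 was at 54.0 and 40.5 FPKM and is listed with a fold of 0, read as not tested.

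Genes that act in making chondroitin sulfate chains, and are not specific to aggrecan, were also counted. Of 28 measured genes of chondroitin sulfate synthesis 11 fell, 1 rose, 14 missed the threshold and 2 were listed with a fold of 0. Csgalnact1, which starts chondroitin chains and is known from cartilage, fell from 1.62 to 0.741 FPKM (log2 change -1.13, q = 1.9e-04 per the authors' deposited table). The epimerase gene Dsel fell from 9.90 to 7.25 FPKM and Impad1, a phosphatase gene of sulfate metabolism, from 46.4 to 40.6. The nucleotide sugar transporter gene Slc35d1 was the one that rose, from 3.10 to 4.27 FPKM (0.46, q = 0.00146 per the authors' deposited table).

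Cell adhesion in condensations and the hyaluronan that aggrecan binds were covered by 14 measured genes, of which 5 fell, 2 rose, 5 stayed short of the threshold and 2 had a fold of 0 with a q of 1. The adhesion gene Ncam1 fell from 14.8 to 9.16 FPKM, Fn1, which encodes fibronectin, from 46.8 to 37.2 and the hyaluronan synthase gene Has2 from 17.8 to 13.0. Their log2 changes were -0.69, -0.33 and -0.45 per the authors' deposited table. Both rises were hyaluronan receptors: Hmmr, also a spindle gene, went from 20.7 to 28.8 FPKM, and Cd44, named after its value was seen, from 1.63 to 2.69.

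Enzymes that cut aggrecan and versican include those of the Adamts family. Of 18 measured proteases and inhibitors 8 fell, none rose and 10 did not pass. Adamts5, a main aggrecanase, fell from 5.17 to 2.20 FPKM, Adamts12 from 2.84 to 1.41, Adamts1 from 23.3 to 13.1 and Adamts9 from 6.98 to 4.85. Their log2 changes were -1.24, -1.01, -0.83 and -0.53 per the authors' deposited table. Set against the 11.6% of genes above 0 FPKM and the 17.6% of genes of at least 1 FPKM that fell, the share of falls was 75.0% in the collagens, 44.4% in the proteases, 39.3% in chondroitin sulfate synthesis and 35.7% in condensation and hyaluronan. It was 28.1% in the regulators, 16.7% in the other cartilage matrix genes and 13.3% in the relatives of the 10 genes, the last 2 near the share of all genes. No test was made between lists.

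**Figure D4:**
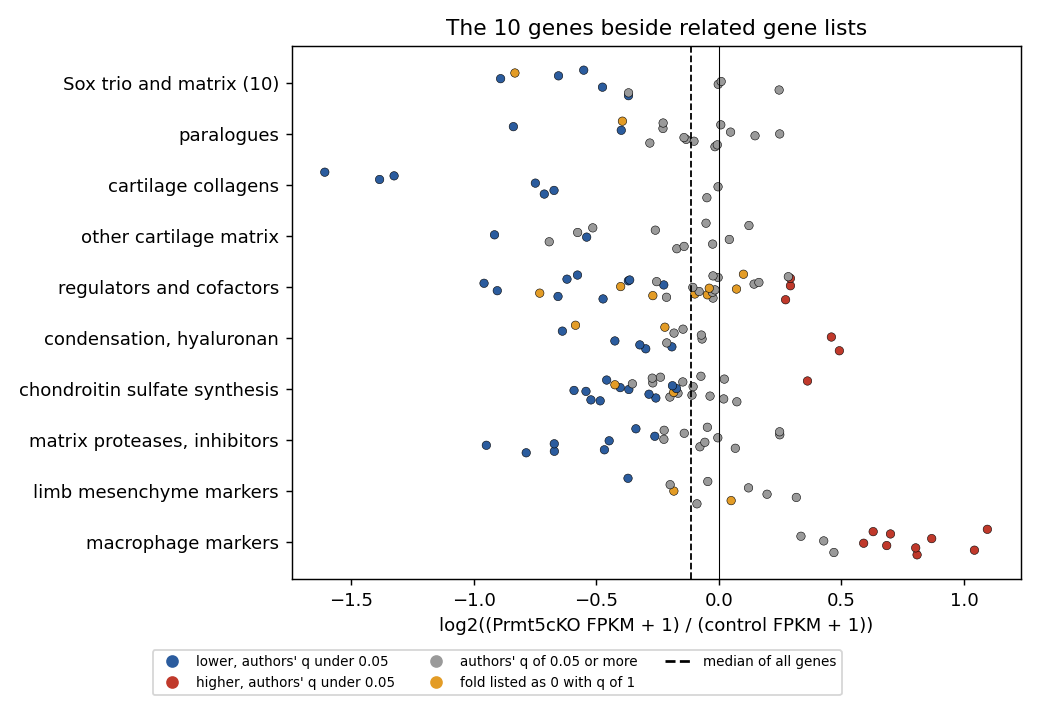
Each point is a gene, placed by its log2 ratio with 1 FPKM added and coloured by the authors' q, in rows for the 10 genes, 7 related lists and 2 lists of cell type markers; the dashed line is the median of all genes at -0.12. The chains of collagen IX lie furthest left, the collagens Col10a1 and Col27a1 lie near 0, and all 12 macrophage markers lie right of 0. Limb mesenchyme markers with rows of their own lie around 0, and Pdgfra, which shares its row, is not drawn.

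Markers of the cells in which these genes could be expressed were set beside these values. The 9 limb mesenchyme markers with rows of their own summed to 572 FPKM in control and 567 in Prmt5cKO. Of these, 1 fell (Twist2, 38.1 to 29.2) and 6 did not pass. The other 2, Prrx1 and Lhx9, are listed with a fold of 0, read as not tested. Prrx1 was at 122 and 107 FPKM and Twist1 at 111 and 107. The summed level of these 9 markers, without Pdgfra, was 99.2% of control, that of the trio 60.4% and that of the 7 matrix genes 69.7%. Pdgfra, also on the list of markers, shares a row with Mir7025 and is not in that sum. Its row was at 108 and 56.3 FPKM (log2 change -0.95, q of 0 per the authors' deposited table). The sums follow their most abundant genes, and the part of cell number in any of them was not tested.

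Sox5, Sox6 and Sox9 are also known from other cells, among them muscle and red cell precursors (Sox6) and neural crest derivatives. Of 14 muscle markers 3 fell and 1 rose, with sums of 167 FPKM in control and 136 in Prmt5cKO. Of 8 red cell markers other than globins 1 fell, with sums of 78.3 and 62.4. Among the globins, the shared row of Hba-a1 and Hba-a2 fell from 1661 to 1167 FPKM. Its log2 change was -0.51 with q = 7.0e-04 per the authors' deposited table. Hba-x, Hbb-bh1 and Hbb-y had lower values in Prmt5cKO but did not pass. Of 11 nerve and Schwann cell precursor markers above 0, 2 fell, with sums of 25.9 and 23.7; Neurod1 was at 0 in both genotypes. Of 12 macrophage markers 9 rose and none fell, with sums of 37.3 and 70.8, of 12 ectoderm markers 4 rose and 1 fell (182 and 184), and of 12 endothelial markers 2 fell (107 and 99.7). The shares that fell were 21.4% in muscle, 12.5% in red cell, 18.2% in nerve, 16.7% in endothelial and 8.33% in ectoderm markers. It was 11.1% in the limb mesenchyme markers. Of all genes above 0 FPKM 11.6% fell and 2.95% rose, and of genes of at least 1 FPKM 17.6% and 4.39%. The part of these cell types in the levels of the 10 genes was not tested.

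Genes next to the 10 on the chromosome were read for comparison, taking the nearest protein-coding gene of at least 1 FPKM on each side. Of 20 such neighbours 4 fell (Kcnj2, Laptm4a, Edil3 and Crtc1) and 1 rose (Aen), 13 did not pass and 2 were listed with a fold of 0. That is 20% that fell, near the 17.6% of all genes at this level. Kcnj2, a potassium channel gene 1705403 bases before Sox9, fell from 14.8 to 10.1 FPKM, with a log2 change of -0.55 and q = 0.00121 per the authors' deposited table. The gene on the other side of Sox9, Slc39a11, did not pass, at 5.11 and 4.81 FPKM. Neither neighbour of Sox5 (Etnk1 and Bcat1), of Sox6 (Pde3b and 1110004F10Rik) or of Matn4 (Stk4 and Sdc4) passed the threshold.

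Antisense genes overlap Sox5 and Sox6 in GENCODE M21. Of these, Sox5os3 had a row, with 0.262 FPKM in control, 0.137 in Prmt5cKO and a q of 1. Without strand in the counting, reads of such partners and of the gene cannot be told apart, and no source used here says whether strand was used.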

How the data were processed

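Forelimb RNA of 3 control and 2 Prmt5cKO samples was grouped by the sample titles. Per the submitters' processing notes, the tools were TopHat2 2.0.10, Bowtie2 2.1.0 and Cufflinks 2.1.1 with build mm10, without roles or settings. Per the file headers, the deposited table gives 1 FPKM per genotype, a log2 fold change and a q-value, an adjusted p-value, from the authors; how replicates were combined and which test was used are not stated in any source used here. FPKM corrects for length and total but not for composition. The deposited log2 values matched the log2 of the FPKM ratio to within 1.3e-05 in 20663 rows. Genes with a fold of 0 and a q of 1 were taken as untested, which concerned 9.05% of 11674 genes with a mean of at least 1 FPKM.

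A gene was called where the authors' q was under 0.05. No test of differences between replicates could be run, and protein comparisons were not analysed here. With Python 3.11.15 and pandas 2.3.3, log2 ratios were computed with a pseudocount of 1 FPKM, and functions were tested on simulated data. Where a symbol repeats, the row with the highest mean was used. Named genes were the 10, their relatives, Prmt5, sex-linked genes and up to 4 called genes per list with the smallest q, ties by fold. The 10 genes and all lists were chosen with earlier results of these data known. Alternatives covered the q threshold, minimum level, fold, pseudocount, scaling and motif letters.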

Additional observations from a re-analysis of the deposited data

How the results depend on the processing

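The count of 5 falls and 0 rises was computed under 7 alternatives. It was 4 falls with a q under 0.01 (without Lect1) and 4 with a minimum mean of 1 FPKM (without Acan), and 3 with a minimum of 5 FPKM, which leaves 4 of the 10 genes to count. It stayed at 5 with a q under 0.1, a minimum of 1.5-fold, centring on the median ratio, or any row of a symbol, and there were 0 rises in each. The median log2 ratio of the genes with a mean of at least 1 FPKM, -0.55 with a pseudocount of 1 FPKM, lay between -0.74 (minimum of 5 FPKM, 4 genes) and -0.41 (quantile normalization). Rescaling by the median ratio and quantile normalization turned the log2 ratio of Matn1 from -0.0029 to 0.047 and 0.050, so Matn1 has no direction; they turned no other sign among the 10. A pseudocount of 0.1 FPKM moved Comp from -0.37 to -1.26 and Acan from -0.37 to -0.69. Matches of the motif letters were before 6 starts in the whole window of 300 bases too, and before 4 with the longer letters AACAAAG and AACAATG. No paired analysis was possible because the tables hold 1 value per genotype and none per sample; leaving out replicates was not run for the same reason. Depth per sample is unknown, and at the levels of Comp and Matn1 few genes were called in either direction.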
